A study of Mus musculus with 8 samples.

Results

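Chromatin accessibility was examined at 9 genes of the myoepithelial and contractile program, namely Trp63, Acta2, Myh11, Cnn1, Tagln, Mylk, Oxtr, Myocd and Tpm2, out of 21755 protein-coding genes. A peak, which is a stretch called open by ATAC-seq, was assigned to a gene when it overlapped the gene body or lay within 10 kb of a transcription start site (TSS) of GENCODE M21. The peaks of all 8 libraries merged into 183173 regions, of which 110 lay at these genes, and 54 of the 110 carried a peak in at least 2 libraries.

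The libraries came from cultured cell lines derived from mouse mammary tumors driven by the polyomavirus middle T oncogene (PyMT), with strain given as FBV/N, either WT or Lats1-CKO, in which the Hippo pathway kinase gene Lats1 is deleted in the epithelium. Each genotype was sorted by FACS into a luminal population (EpCAM-high, CD49f-high) and a basal-like population (EpCAM-low, CD49f-high), which were then briefly expanded. The groups are WT luminal (BM1 and BM5), WT basal-like (BM2 and BM6), Lats1-CKO luminal (BM3 and BM7) and Lats1-CKO basal-like (BM4 and BM8), with 2 libraries each. All 4 groups carry the oncogene and none is normal gland, the driver of the deletion and the age of the animals are not given in the sources used here, and no label ties the libraries to separate animals or lines, so the p-values below measure only the spread between these libraries. Peak lists do not show whether Lats1 was deleted, and the deletion was not checked here.

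Myoepithelial cells form the outer, basal layer of the mammary duct and alveolus, and squeeze milk toward the nipple when oxytocin binds its receptor. Contraction follows when calcium activates myosin light chain kinase, which lets smooth muscle myosin pull on smooth muscle actin. Serum response factor (SRF), which binds the CArG box, and its coactivator myocardin drive many smooth muscle genes, whereas p63 maintains the basal epithelial state.

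The lists held between 14753 peaks (BM3) and 99022 peaks (BM8), and the other 6 held between 51497 and 93467. No read counts come with them, so the depth is unknown. BM3 stood apart. The study's methods state that a Lats1-CKO luminal replicate was set aside for quality when replicates were merged, without naming it, so either BM3 or BM7 is a library its authors did not merge. Both were kept here, so Lats1-CKO and luminal means include that library, and values without BM3 are given beside the main comparisons. The score of a peak was turned into its percentile among all peaks of the same library, so that 100 is the highest score, and 0 stands for no peak. As a check of the sort, 14 luminal marker genes were counted for a start-site peak, meaning a peak no more than 1 kb from a TSS. Those with one numbered 13 and 11 in the WT luminal libraries, 11 and 7 in the WT basal-like ones, 5 (BM3) and 12 (BM7) in the Lats1-CKO luminal ones, and 6 and 7 in the Lats1-CKO basal-like ones. BM3, though labelled luminal, has the lowest count. In that library 34.6% of all coding genes had such a peak, against 50.9% to 59.3% in the other libraries. Its count therefore cannot tell a conflict with the label from a short list. The WT populations also meet on this count, at 11 in BM5 and in BM2. Of 28 myoepithelial or basal program genes, 23 and 20 had such a peak in WT luminal and 22 and 18 in WT basal-like libraries. In Lats1-CKO cells the counts were 16 (BM3) and 26 (BM7) in luminal and 18 and 20 in basal-like libraries. The populations overlap on this count too, and a luminal library, BM7, is highest.

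Peaks at the 9 genes were found in every group, and their share of a library differed little between groups against the spread within them. The 9 genes together held 41 and 34 peaks in WT luminal cells (BM1 and BM5) and 33 and 27 in WT basal-like cells (BM2 and BM6). In Lats1-CKO cells they held 3 and 57 peaks in the luminal libraries (BM3 and BM7) and 62 and 45 in the basal-like ones (BM4 and BM8). BM3 is far below all others and BM4 is highest. Per 10000 peaks of the library the values were 5.34 ± 0.492 in WT (SD, n = 4) and 4.97 ± 2.24 in Lats1-CKO (SD, n = 4), or 5.94 ± 1.33 without BM3 (n = 3). Luminal libraries averaged 4.89 ± 1.91 (n = 4), or 5.84 ± 0.234 without BM3 (n = 3), and basal-like libraries 5.41 ± 1.22 (n = 4). Each of these differences lies within the spread of the libraries. In the 50000 highest-scoring peaks of each library other than BM3, the 9 genes held between 21 peaks (BM1) and 34 peaks (BM4).

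**Figure D1:**
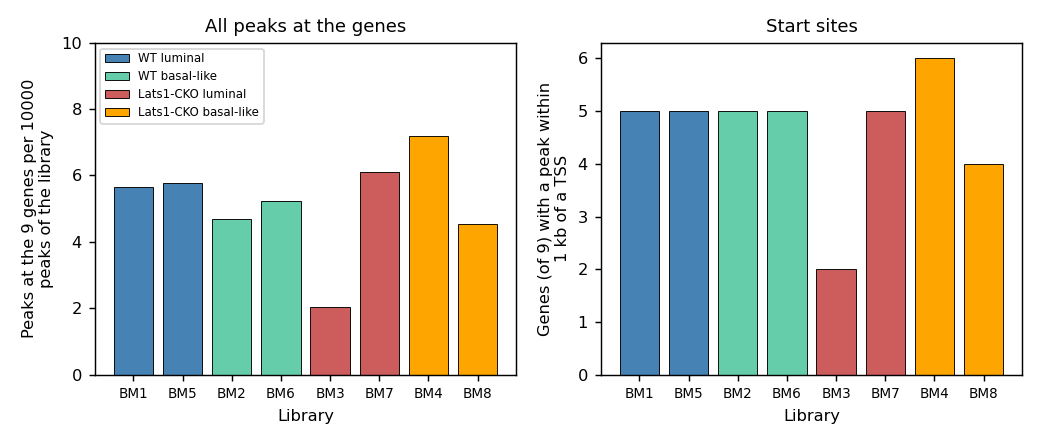
Bars give, for each of the 8 libraries (x axis, coloured by group), the peaks at the 9 genes per 10000 peaks of the library (left) and the number of the 9 genes with a start-site peak (right). BM3 is lowest in both panels, at 2.03 and 2, and BM4 is highest, at 7.19 and 6.

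Start sites were open at about the same number of the genes in most libraries. Of the 9 genes, 5 had a start-site peak in each of the 4 WT libraries, and 2, 5, 6 and 4 did in BM3, BM7, BM4 and BM8. Mylk and Tagln had one in all 8 libraries, Tpm2 in 7 and Myh11 in 6. Oxtr had one in 4 libraries, Cnn1 in 3, all WT, and Acta2 in BM4 alone. In BM1, BM2 and BM5 the peak of the Oxtr region nearest the TSS lay just beyond 1 kb and was not counted. No library had a peak within 1 kb of any TSS of Trp63 or Myocd, the transcription regulators of the set.

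Of the 110 regions, 80 were intronic, 15 lay upstream, 9 lay within 1 kb of a TSS and 6 overlapped an exon further inside a gene. A peak in only 1 library was seen at 56 of the 110 (50.9%), against 44.5% of all 183173 regions. Of these 56, BM4 alone held 22 and BM7 alone 18, whereas over all regions found in 1 library BM8 held the most, 26.0%, and BM4 24.7%. Regions found in 1 library were weak, with a median percentile of 22.3, and the peaks of the 10 regions found in 7 or 8 libraries had a median of 70.4. In 51 regions (46.4%) no WT library had a peak, against 39.2% of all regions, and in 11 (10%) no Lats1-CKO library did, against 16.5%. Lats1-CKO libraries other than BM3 also hold more peaks in all. The larger share without a WT peak than without a Lats1-CKO peak therefore cannot be told apart from the size of the lists. The shares of all regions come from the same lists. Of the 51 regions, 21 were at Mylk and 11 at Trp63, and the gap to the share of all regions was not tested.

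**Figure D2:**
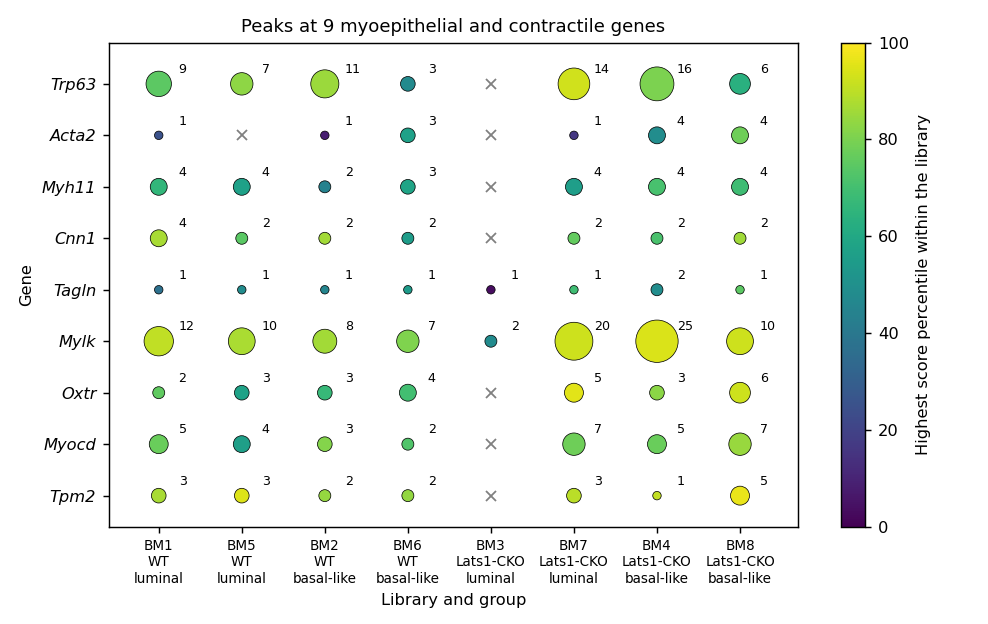
Circle area and the number beside it give the peaks at each of the 9 genes (y axis) in each of the 8 libraries (x axis, with group), and colour gives the highest score percentile at the gene. A cross marks no peak. Mylk and Trp63, the longest genes, carry the most peaks, up to 25 and 16 in BM4, and BM3 has peaks only at Mylk and Tagln.

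Oxtr encodes the oxytocin receptor, the entry point of the contraction signal. It lies on chromosome 6, positions 112473683 to 112489943 of GRCm38 on the minus strand. Per 100 kb its window held 12.4 peaks on average, more than 87.5% of coding genes with a peak, the densest of the 9. The numbers of peaks were 2 and 3 in WT luminal, 3 and 4 in WT basal-like, 0 (BM3) and 5 (BM7) in Lats1-CKO luminal, and 3 and 6 in Lats1-CKO basal-like libraries. These ranges overlap in every comparison.

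A pair of upstream regions of Oxtr stood above WT in the Lats1-CKO libraries other than BM3, and their sequences are shown for that reason. Over all tested regions 9.97% had that order, and by rank from the highest score only the farther region of the pair kept it. All sequences here were read from the plus strand of GRCm38, 5′ to 3′, and capitals mark the motifs that were searched: the AP-1 site TGANTCA, the TEAD site GGAATG (TEAD factors are the DNA-binding partners of the Hippo effectors YAP and TAZ), the CArG box of SRF, the MEF2 site and the 10-base site of the p53 family, to which p63 belongs. Motifs were taken on either strand, and these letters alone do not show a bound site. The CArG box was searched only as CCWWWWWWGG, where W is A or T, so boxes with another base in that core were missed. The first region, whose near edge is 7628 bp upstream of the TSS, holds TGACTCA at bases 56 to 62, GGAATG at 67 to 72 and the p53 family match AAACATGCCT at 172 to 181, counted from its first base. The second begins 824 bp upstream and is 410 bp long, of which the central 300 bases are printed, and it holds none of these motifs there.
Oxtr upstream region, chr6:112497571-112497788: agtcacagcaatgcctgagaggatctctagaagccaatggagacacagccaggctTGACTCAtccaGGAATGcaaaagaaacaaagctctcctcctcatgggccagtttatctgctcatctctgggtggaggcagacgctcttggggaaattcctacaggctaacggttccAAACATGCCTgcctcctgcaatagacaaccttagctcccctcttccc
Oxtr region near the TSS, chr6:112490822-112491121: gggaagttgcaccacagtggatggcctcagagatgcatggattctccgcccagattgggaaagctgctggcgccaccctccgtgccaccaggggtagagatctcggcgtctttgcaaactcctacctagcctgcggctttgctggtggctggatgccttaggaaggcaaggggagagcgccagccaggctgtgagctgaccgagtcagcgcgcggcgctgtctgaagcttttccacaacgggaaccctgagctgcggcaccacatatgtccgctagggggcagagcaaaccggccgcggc

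The upstream Oxtr region had no peak in WT luminal cells and stood at percentiles of 21.8 (BM2) and 3.3 (BM6) in WT basal-like cells. In Lats1-CKO cells it stood at 56.9 in BM7, 76.2 in BM4 and 84.1 in BM8, with no peak in BM3. The Lats1-CKO libraries were all above the WT ones apart from BM3, and within each genotype the basal-like libraries were above the luminal ones. The genotype difference in the limma fit over all regions was 48.0 ± 22.1 percentile points (SE, adjusted p = 0.723), and 62.3 ± 17.7 without BM3 (adjusted p = 0.378). It did not pass the threshold of 0.05. The region nearer the TSS was open in 7 libraries, at 75.7 and 57.5 in WT luminal, 63.6 and 69.9 in WT basal-like, 83.1 in BM7, 82.7 in BM4 and 92.4 in BM8. Without BM3 the genotypes do not overlap here, by 18.7 ± 7.99 points in the fit (SE, adjusted p = 0.382). With BM3 the difference was -2.13 ± 18.9 points (adjusted p = 0.985). An intronic region 5092 bp past the TSS was at 61.6 in BM1, 67.0 in BM2, 65.8 in BM6, 95.4 in BM7 and 88.9 in BM8, with no peak in BM5, BM3 and BM4.

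Mylk encodes myosin light chain kinase, which starts contraction, and lies on chromosome 16 from 34745210 to 35002420 on the plus strand, with 8 TSSs. It held 38 of the 110 regions, 23 of them in 1 library. The peaks numbered 12 and 10 in WT luminal, 8 and 7 in WT basal-like, 2 (BM3) and 20 (BM7) in Lats1-CKO luminal, and 25 and 10 in Lats1-CKO basal-like libraries. BM8 holds as many as BM5, so the genotypes overlap. The outermost TSS was open everywhere, at 90.6 and 75.0, 75.6 and 80.6, 48.0 and 85.3, and 88.2 and 92.3 in the same order. By rank from the highest score it was at 7673 in BM3, inside the range of the other libraries, 6866 to 17201. It was the strongest of the named Mylk regions, with a mean percentile of 79.4.

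An intronic Mylk region 14530 bp past an inner TSS was at 40.0 and 87.4 in WT luminal cells, at 41.5 in BM6 and absent in BM2, and at 92.3 in BM7, 90.6 in BM4 and 90.6 in BM8. It is shown because the Lats1-CKO libraries other than BM3 were all above WT, an order that 9.97% of all tested regions had and that was lost by rank. It carries none of the 5 motifs. The fitted difference was 26.2 ± 24.7 points (SE, adjusted p = 0.781), 49.3 ± 17.4 without BM3 (adjusted p = 0.378) and 3.10 without BM7.
Mylk intronic region, chr16:34967588-34967791: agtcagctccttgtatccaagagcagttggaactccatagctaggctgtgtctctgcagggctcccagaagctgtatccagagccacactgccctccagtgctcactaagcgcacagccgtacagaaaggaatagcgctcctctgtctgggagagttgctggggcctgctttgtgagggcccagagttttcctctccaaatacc

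Another Mylk region, named after its values were seen, lies 1412 bp past a TSS near the 3′ end and was open in all 4 basal-like libraries, at 74.0 and 49.1 in WT and 90.8 and 74.3 in Lats1-CKO cells. Among the luminal libraries it was open in BM7 alone, at 58.3, above the 49.1 of BM6, so the populations overlap. The basal-like libraries were higher by 57.5 ± 23.3 points in the fit (SE, unadjusted p = 0.032, adjusted p = 0.916), and by 42.9 ± 16.7 without BM3 (adjusted p = 0.767). The other named Mylk region, 39216 bp before an inner TSS, was open in 6 libraries at 46.9 to 86.2 and differed by -5.72 ± 26.4 points between genotypes (SE, adjusted p = 0.967), but by 13.5 ± 23.3 without BM3, so its sign rests on that library.

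**Figure D3:**
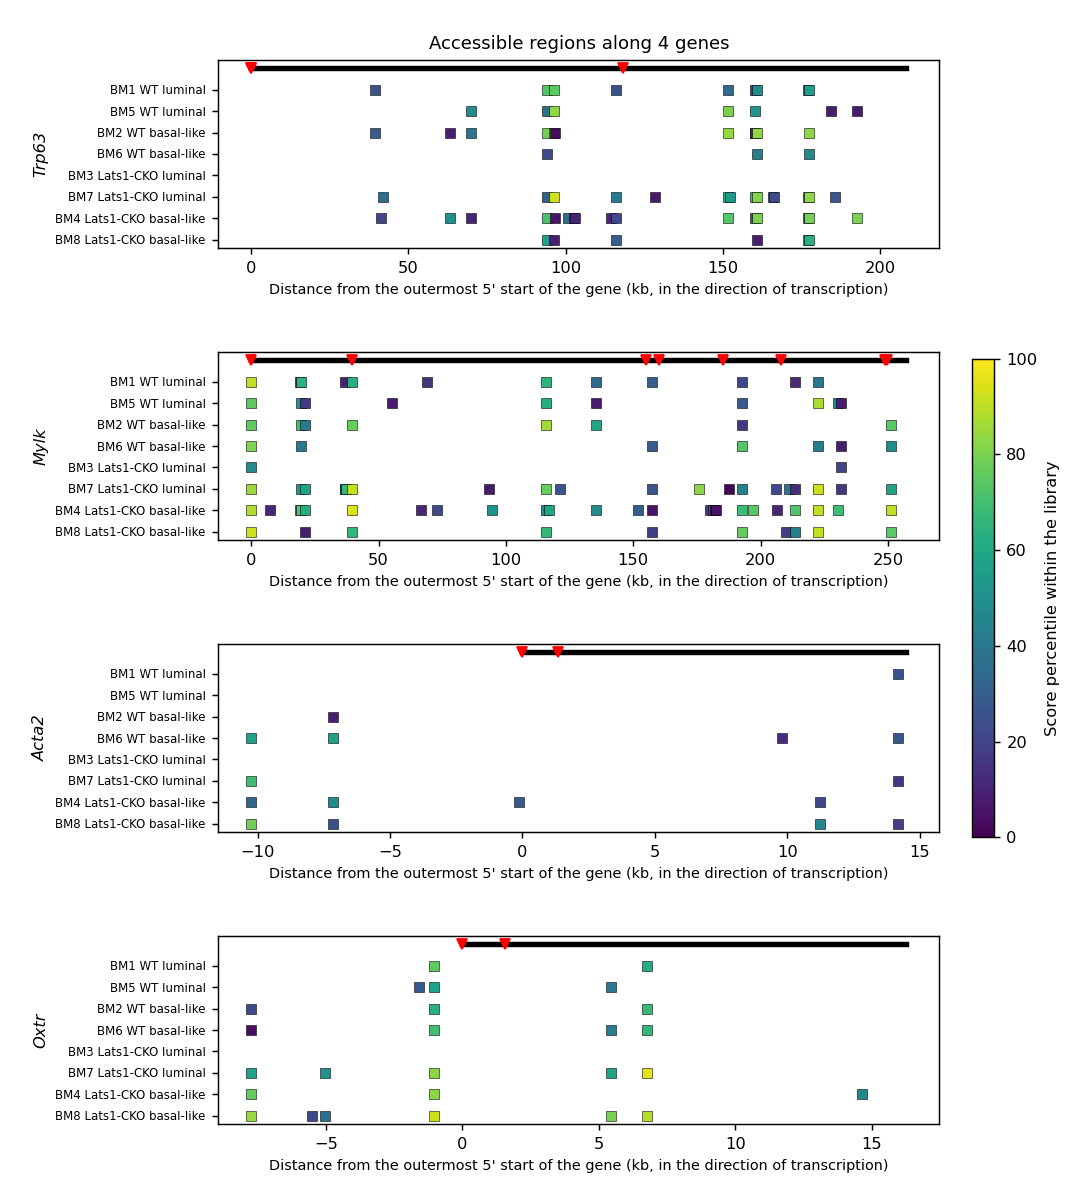
Squares show, for Trp63, Mylk, Acta2 and Oxtr, where each of the 8 libraries (rows, with group) had a peak, against the distance in kb from the outermost start of the gene in the direction of transcription, coloured by score percentile. The black bar is the gene body and red triangles are TSSs. Squares line up over the Mylk start in all 8 libraries, at 48.0 to 92.3, and none lies within 1 kb of a Trp63 start.

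Acta2 encodes smooth muscle actin, the thin filament of the contractile apparatus, and lies on chromosome 19 from 34241090 to 34255590 on the minus strand. It had 1 and 0 peaks in the WT luminal libraries and 0 (BM3) and 1 (BM7) in the Lats1-CKO luminal ones. The basal-like libraries had 1 (BM2), 3 (BM6), 4 (BM4) and 4 (BM8). Per 10000 peaks of the library every basal-like library was above every luminal one, at 0.398 ± 0.186 against 0.0611 ± 0.0717 (SD, n = 4 each), and the two-sided exact permutation p was 0.029, the smallest that 4 against 4 libraries allows. Such a separation, basal-like above luminal, was found for 1.09% of the 18524 coding genes with a peak, and the reverse for 0.81%. In the fit over all genes the log2 difference was 1.29 ± 0.53 (SE, unadjusted p = 0.021, adjusted p = 0.937), and 1.56 ± 0.51 without BM3. The separation rests on the scaling to library size, since BM1, BM2 and BM7 each had 1 peak, and on regions beyond 5 kb of the TSS. Within 5 kb the only Acta2 peak was in BM4.

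The Acta2 regions are shown for their place by population. The promoter region, 31 bp upstream of the TSS, was called in BM4 alone, at 28.3. It holds CATTCC, the TEAD site read on the other strand, at bases 30 to 35. A region of 89 bp, 7125 bp upstream, had a peak in all 4 basal-like libraries and no luminal one, with percentiles of 8.45 in BM2, 57.01 in BM6, 48.5 in BM4 and 25.6 in BM8, and holds GGAATG at bases 33 to 38. Of the 110 regions 1 (0.909%) had this pattern, and of all 183173 regions 166 (0.0906%) did. Both sets include regions with a peak in only 1 library, which could not show it, 56 of the 110 and 81586 of all. The basal-like libraries were higher by 34.9 ± 15.8 points (SE, unadjusted p = 0.050, adjusted p = 0.916), and by 34.9 ± 17.0 without BM3 (adjusted p = 0.785). A further region reaches into the 10 kb limit from outside, with its near edge 9990 bp upstream. It had a peak in BM6 (56.6), BM7 (68.8), BM4 (32.7) and BM8 (77.96), and differed by 30.7 ± 25.1 points between genotypes (SE, adjusted p = 0.744), by 47.9 without BM3 and by 13.5 without BM7. In the last exon a region was called at 25.3 in BM1, 27.1 in BM6, 16.3 in BM7 and 18.5 in BM8. The central 300 of the 505 bases of the far upstream region hold the CArG box CCTTATAAGG at bases 152 to 161, TGAGTCA at 174 to 180 and GGAATG at 216 to 221.
Acta2 promoter region, chr19:34255621-34255807: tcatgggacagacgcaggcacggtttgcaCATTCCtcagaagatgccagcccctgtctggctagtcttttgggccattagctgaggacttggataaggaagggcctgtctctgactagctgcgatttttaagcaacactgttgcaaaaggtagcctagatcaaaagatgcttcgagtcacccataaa
Acta2 upstream region, chr19:34262715-34262803: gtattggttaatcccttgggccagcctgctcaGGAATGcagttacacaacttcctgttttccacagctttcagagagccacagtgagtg
Acta2 far upstream region, chr19:34265683-34265982: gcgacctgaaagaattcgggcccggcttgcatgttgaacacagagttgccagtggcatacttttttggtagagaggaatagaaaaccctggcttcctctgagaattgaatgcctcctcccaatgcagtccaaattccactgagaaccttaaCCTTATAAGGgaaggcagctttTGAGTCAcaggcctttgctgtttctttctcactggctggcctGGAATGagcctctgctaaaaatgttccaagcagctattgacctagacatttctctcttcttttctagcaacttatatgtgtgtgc

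Fibroblasts can also express smooth muscle actin, so markers of that cell type were counted beside the Acta2 values. Of 12 fibroblast genes, 3 and 3 had a start-site peak in the WT luminal libraries, 6 (BM2) and 4 (BM6) in the WT basal-like ones, 1 (BM3) and 3 (BM7) in the Lats1-CKO luminal ones, and 9 (BM4) and 7 (BM8) in the Lats1-CKO basal-like ones. Col3a1 and Lum had none in any library. On the fibroblast count every basal-like library was above every luminal one, the same separation as for Acta2 peaks scaled to library size. Within WT basal-like cells alone the order was the reverse of that of Acta2, which had 1 peak in BM2 and 3 in BM6. The cultures had been washed to detach fibroblasts when the lines were made, and both sorted populations are CD49f-high. In cultures before the sort, the paper reports more cells classed as fibroblasts in Lats1-CKO than in WT, to a varying extent. The part of fibroblasts in the result was not tested. Of 8 pericyte and vascular smooth muscle genes at most 2 had such a peak in a library, and Rgs5, Cspg4, Notch3, Abcc9 and Kcnj8 had none in any. In bulk libraries, more cells of a type and more open chromatin per cell cannot be told apart.

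Myh11 encodes smooth muscle myosin heavy chain, the motor of contraction, and lies on chromosome 16 from 14194535 to 14291372 on the minus strand. It held 4 and 4, 2 and 3, 0 and 4, and 4 and 4 peaks in the libraries taken in the order BM1, BM5, BM2, BM6, BM3, BM7, BM4 and BM8. Apart from BM3 the number ranged from 2 to 4. Its promoter region, 23 bp upstream of a TSS, was open in 6 libraries, at 65.7 and 56.8, 8.45 and 58.2, 40.8 in BM7 and 69.4 in BM4, with no peak in BM3 and BM8. An intronic region at 53791 bp past the TSS was at 25.3 and 48.2, 44.1 and 19.6, 55.7 in BM7, 71.0 in BM4 and 57.2 in BM8. The other intronic region, close to the 3′ end, was at 15.4 and 48.2 in WT luminal cells, 47.6 in BM6, 49.98 in BM7, 58.5 in BM4 and 68.8 in BM8. For this pair, the Lats1-CKO libraries other than BM3 were above all WT ones, as at 9.97% of all tested regions, and neither kept that order by rank.

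Tpm2 encodes a tropomyosin that lies along the actin filament, and lies on chromosome 4 from 43514711 to 43523765 on the minus strand. It held 3 and 3, 2 and 2, 0 and 3, and 1 and 5 peaks in the same order of libraries. The main region, 801 bp past an inner TSS, was at 86.9 and 94.6, 84.2 and 84.0, 89.8 in BM7, and 90.8 and 96.5, with no peak in BM3. It was high in every library that had it and differed between genotypes by -18.1 ± 16.4 points (SE, adjusted p = 0.770), or 4.32 ± 3.76 without BM3. A second start-site region, 390 bp upstream of an inner TSS, ranged from 10.4 in BM1 to 73.1 in BM8 and was open in 5 libraries. A region 6938 bp upstream was at 8.2 in BM5, 32.7 in BM7 and 35.4 in BM8.

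Cnn1 encodes calponin, an actin-binding protein that restrains myosin in smooth muscle, and lies on chromosome 9 from 22099216 to 22109630 on the plus strand. The WT libraries held 4 and 2 peaks in luminal and 2 and 2 in basal-like cells, and the Lats1-CKO libraries 0 (BM3), 2, 2 and 2. Per 10000 peaks every Lats1-CKO library was below every WT one, at 0.162 ± 0.109 against 0.391 ± 0.115 (SD, n = 4 each, two-sided exact permutation p = 0.029). A Lats1-CKO value below WT without overlap was found for 2.83% of coding genes, and above WT for 1.38%. The log2 difference was -0.69 ± 0.46 (SE, adjusted p = 0.990). Without scaling, 6 of the 8 libraries had 2 peaks each and the genotypes overlapped. The peak over the TSS was called only in WT libraries, at 6.6 in BM1, 74.6 in BM5 and 27.1 in BM2, with none in BM6, and differed by -27.1 ± 15.5 points (SE, adjusted p = 0.723). The size rests on WT luminal libraries, at -10.1 without BM5 and -44.1 without BM1, and was the same without BM3. The region that most libraries shared lies 8866 bp upstream, nearer to the start of Ecsit than to that of Cnn1. It is shown as the strongest region of the gene and holds the AP-1 site TGAGTCA at bases 84 to 90. Its percentiles were 86.9 and 53.2, 86.0 and 55.0, 76.1 in BM7, and 71.4 and 85.8. A region 2881 bp upstream was at 18.2 in BM1, 22.5 in BM6, 46.9 in BM7, 21.6 in BM4 and 63.5 in BM8.
Cnn1 upstream region, chr9:22090086-22090350: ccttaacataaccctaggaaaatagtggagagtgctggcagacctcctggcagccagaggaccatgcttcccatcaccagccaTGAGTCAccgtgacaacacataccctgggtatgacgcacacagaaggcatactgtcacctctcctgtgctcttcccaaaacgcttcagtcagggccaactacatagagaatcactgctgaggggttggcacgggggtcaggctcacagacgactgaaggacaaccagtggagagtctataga

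Tagln encodes transgelin, an actin-bundling protein and a widely used smooth muscle marker, and lies on chromosome 9 from 45929619 to 45936058 on the minus strand. It had 1 peak in each library except BM4, which had 2. The shared peak, 955 bp upstream of a TSS, was at 36.9 and 48.2 in WT luminal, 45.4 and 54.6 in WT basal-like, 3.2 (BM3) and 69.1 (BM7) in Lats1-CKO luminal, and 38.6 and 74.7 in Lats1-CKO basal-like libraries. By rank from the highest score this peak stood highest in BM3, at 14285, against 23360.5 to 53013.5 in the other libraries. The low percentile in BM3 thus goes with its short list. This peak and the outermost Mylk start were the regions of the set found in all 8 libraries. Its genotype difference was 0.11 ± 23.6 points (SE, adjusted p = 0.999), and 16.6 ± 16.7 without BM3. The second peak of BM4, at 48.5, lies within 157 bp of a start of Sidt2.

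Trp63 encodes p63, the regulator of the basal epithelial state, and lies on chromosome 16 from 25683763 to 25892102 on the plus strand, with an outer cluster of starts for the longer protein and an inner start for the shorter ΔN form. The peaks numbered 9 and 7 in WT luminal, 11 and 3 in WT basal-like, 0 (BM3) and 14 (BM7) in Lats1-CKO luminal, and 16 and 6 in Lats1-CKO basal-like libraries. The pair of libraries in each basal-like group differed more than the groups did. All 26 regions lay inside the gene. The nearest to a TSS was 2014 bp upstream of the inner start, at 25.3 in BM1, 40.8 in BM7, 21.6 in BM4 and 29.2 in BM8. Higher values were found further away. A region 24121 bp before the inner start was open in 7 libraries, at 72.8 and 37.2, 78.8 and 22.5, 30.4 in BM7, and 71.4 and 57.2. One at 59231 bp past it was at 55.9 in BM1, 83.6 and 47.6 in WT basal-like, 83.1 in BM7, and 79.1 and 63.5 in Lats1-CKO basal-like libraries. The region with the highest value, 21656 bp before the inner start, was at 75.0 and 83.0 in WT luminal, 92.6 in BM7, 85.1 in BM2 and 8.6 in BM8, with none in BM6, BM3 and BM4. The populations overlap, since BM2 is above both WT luminal libraries. The population difference was -39.2 ± 28.5 points (SE, adjusted p = 0.916), -62.4 ± 24.5 without BM3 (adjusted p = 0.767) and -16.1 without BM7. It is shown because it holds the TEAD site on both strands a base apart, GGAATG at bases 199 to 204 and CATTCC at 206 to 211.
Trp63 intronic region, chr16:25780000-25780260: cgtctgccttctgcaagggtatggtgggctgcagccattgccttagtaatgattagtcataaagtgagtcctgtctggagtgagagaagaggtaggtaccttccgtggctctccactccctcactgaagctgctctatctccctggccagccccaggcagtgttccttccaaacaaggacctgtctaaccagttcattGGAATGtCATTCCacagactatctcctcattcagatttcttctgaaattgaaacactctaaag

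Myocd encodes myocardin, the SRF coactivator of smooth muscle and heart, and lies on chromosome 11 from 65176561 to 65269989 on the minus strand. It held 5 and 4 peaks in WT luminal, 3 and 2 in WT basal-like, 0 (BM3) and 7 (BM7) in Lats1-CKO luminal, and 5 and 7 in Lats1-CKO basal-like libraries. Within WT the luminal libraries had more than the basal-like ones, and the share of all genes with this order was not counted. In the 50000 highest-scoring peaks the order was lost, with 3 in BM1, BM5 and BM2 and 2 in BM6. An intronic region 2737 bp past an inner TSS was open in 7 libraries, at 77.2 and 55.5, 81.6 and 72.6, 77.9 in BM7, and 77.0 and 84.6. Without BM3 it differed by 7.66 ± 8.39 points between genotypes and by 6.80 ± 8.39 between populations (SE). A second intronic region, 7910 bp past a TSS, was at 6.6 to 68.8 in the same 7 libraries, and another, 4085 bp before a TSS, was at 53.6 and 56.2 in WT luminal, 34.1 in BM2, 65.7 in BM4 and 1.8 in BM8.

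No member passed the threshold in the fits of all 8 libraries or of the 7 without BM3. For the number of peaks per gene, limma called 0 of the 9 genes by genotype, by population or by their interaction at an adjusted p under 0.05, and called 0% of the 18524 genes in each. At an unadjusted p under 0.05 it gave 0, 1 (Acta2) and 0 of the 9, where the background was 3.76%, 3.17% and 3.16% of all genes. For the score percentile, 0 of the 54 regions were called in each comparison, against 0% of the 101587 regions tested. At an unadjusted p under 0.05 there were 0, 2 and 0 regions, where the background was 3.85%, 2.89% and 2.2%. The 2 regions are those of Mylk near its 3′ end and of Acta2 at 7125 bp. Without BM3 the unadjusted counts were 1 (Cnn1), 1 (Acta2) and 0 genes, against 8.72%, 3.85% and 2.96% of all genes, and 3, 3 and 0 regions, against 13.1%, 6.43% and 4.74% of all regions. The regions are 2 of Oxtr and 1 of Mylk by genotype, and 1 of Trp63 and 2 of Mylk by population. Without BM7 the main Tpm2 region passed the adjusted threshold in all 3 comparisons, with BM3, which lacks it, as the only Lats1-CKO luminal library.

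The median log2 difference over the 9 genes was -0.19 between genotypes, against 0.10 over all genes, and -0.11 between populations, against -0.22. These values rest on BM3. Without it the medians were 0.01 between genotypes, against -0.17 over all genes, and -0.24 between populations, against 0.05. Leaving the numbers unscaled moved the median of all genes by 0.60 between populations, and then all 9 genes had a positive population difference, against 3 of 9 (Trp63, Acta2 and Oxtr) when scaled. By genotype 3 of 9 (Acta2, Tagln and Mylk) were positive either way. Leaving out BM3 changed signs as well. By genotype Tagln went from 0.28 to -0.38, Trp63 from -0.37 to 0.18, Oxtr from -0.19 to 0.01 and Myocd from -0.02 to 0.29, so that 5 of 9 were positive. By population Trp63 went from 0.17 to -0.38 and Tagln from -0.41 to 0.25, so that Acta2, Tagln and Oxtr were positive.

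**Figure D4:**
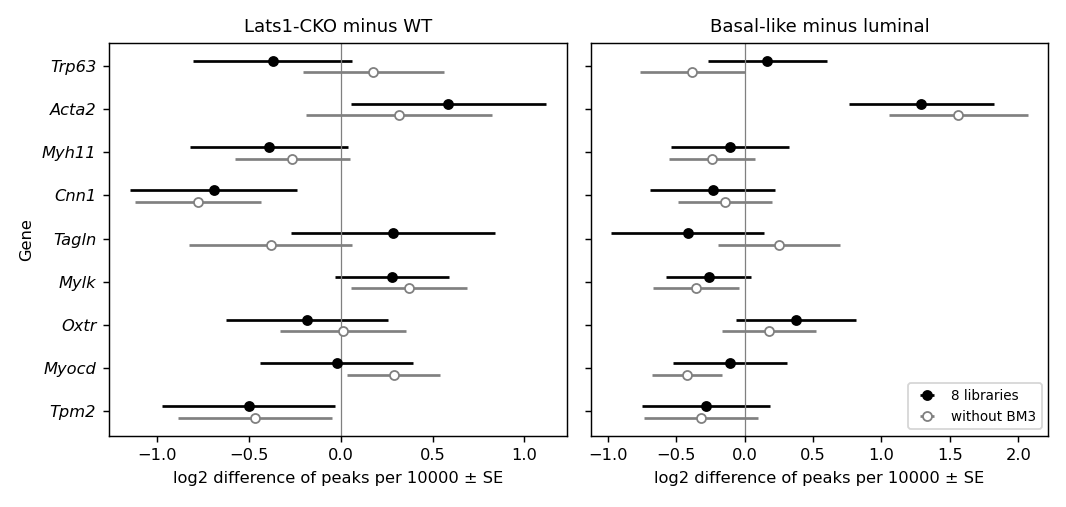
Points give the log2 difference of peaks per 10000 peaks for each gene, Lats1-CKO minus WT (left) and basal-like minus luminal (right), with bars of 1 SE from limma, for 8 libraries (filled) and without BM3 (open). Acta2 lies furthest from 0 by population, at 1.29 and 1.56, and Cnn1 by genotype, at -0.69 and -0.78.

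Without BM3, the Lats1-CKO percentile was above WT in every library at 6 of the 54 regions (11.1%) and below at 0. The background was 9.97% above and 0.638% below over all regions. The 6 regions are the pair in Oxtr, the pair in Myh11, the Mylk region shown and a Mylk region 5654 bp past a TSS, which was named after its values were seen and stood at 11.4 in BM1, 13.2 in BM7, 72.4 in BM4 and 43.0 in BM8. A longer list gives a peak of the same rank a higher percentile, and by rank from the highest score 1 region, upstream of Oxtr, was above (1.85%) and 0 below, where the background was 4.79% and 2.36%. By population, without BM3, 1 region (1.85%) was above in all basal-like libraries, that of Acta2 at 7125 bp, and 0 below, with backgrounds of 0.957% and 1.99%. The members' share above WT is thus close to that of all regions.

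**Figure D5:**
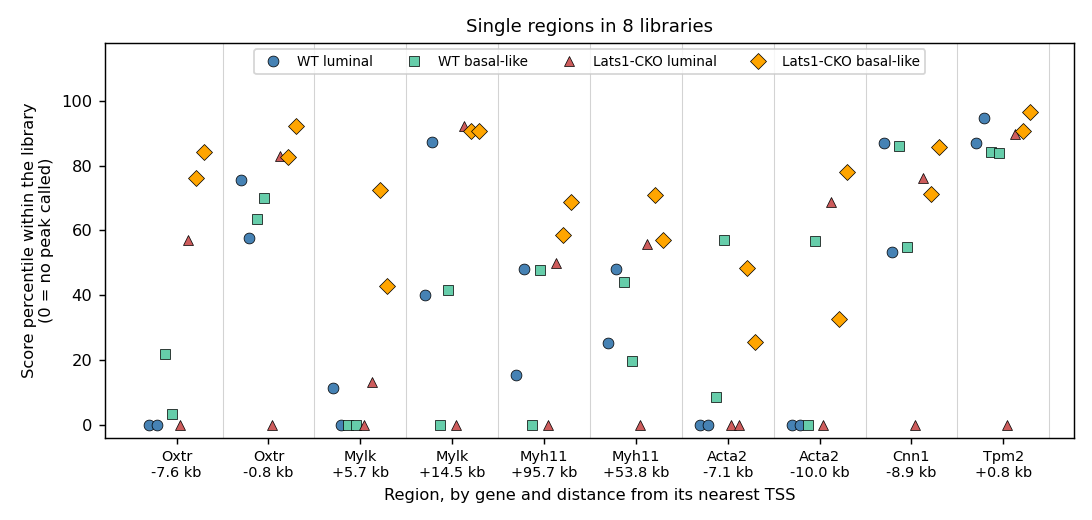
Points give the score percentile (y axis, 0 for no peak) of 10 regions in each of the 8 libraries, with symbol and colour for the group and the signed distance from the nearest TSS under the gene name. The regions were picked after their values were seen. At the Oxtr region 7.6 kb upstream the Lats1-CKO points other than BM3 lie between 56.9 and 84.1 and the WT points between 0 and 21.8, and at the Acta2 region 7.1 kb upstream only basal-like points leave 0.

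The motifs were counted in the central 200 bp of the 110 regions and of all regions. The CArG box was in 3 (2.73%, exact 95% interval 0.566% to 7.76%) against 0.942%, namely the far upstream Acta2 region, the Mylk region at 5654 bp, and a weaker intronic Trp63 region 48043 bp before the inner start. GGAATG was in 25 (22.7%, 15.3% to 31.7%) against 15.8%, and TGANTCA in 35 (31.8%, 23.3% to 41.4%) against 26.1%. The p53 family site was in 8 (7.27%) against 7.34%, and the MEF2 site in 0, for which the interval reaches 3.30%, against 0.467%. RefSeq promoter windows (GRCm38.p6) were matched for 5 of the 9 genes, Acta2, Cnn1, Mylk, Oxtr and Tpm2. Of these 5, 0 held a CArG box of the strict form searched, against 1.63% of all promoter windows. With 5 genes this count cannot be told apart from that share, and it does not show that their promoters lack the box. Acta2 and Mylk held GGAATG against 14.7%.

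Of 28 other genes of the smooth muscle and SRF program, 0 were called by genotype or population. Their median log2 difference was 0.23 by genotype, against 0.10 over all genes, and -0.01 by population, against -0.22. Myl9, a myosin light chain, was the only one of the 28 at an unadjusted p under 0.05, in both comparisons. This is close to the share of all genes, which was 3.76% by genotype and 3.17% by population. It had 0 and 0 peaks in WT luminal, 2 and 1 in WT basal-like, 0 (BM3) and 3 (BM7) in Lats1-CKO luminal, and 3 and 3 in Lats1-CKO basal-like libraries. Its log2 difference was 1.23 ± 0.51 by genotype (SE, adjusted p = 0.990) and 1.08 ± 0.51 by population (SE, adjusted p = 0.937). Of 28 genes of the myoepithelial or basal program, 0 were called, and the medians were 0.10 by genotype and -0.29 by population. By population Lamb3, a laminin chain of the basement membrane, differed by 0.68 ± 0.31 (SE, adjusted p = 0.937) and Sfn, an epithelial 14-3-3 protein, by -0.99 ± 0.42 (SE, adjusted p = 0.937). Lamb3 and Sfn, which went in opposite directions, were the only ones of these 28 at an unadjusted p under 0.05 by population. By genotype 0 of the 28 were. The same shares of all genes, 3.17% and 3.76%, are the background.

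The genes whose highest percentile varied most like that of a member, by Pearson correlation over the 8 libraries among 16447 genes, were Sptb (0.997) and Pin4 (0.996) for Oxtr, Gcnt1 (0.942) and Cbx6 (0.934) for Acta2, Sh3rf2 (0.986) and Mtrr (0.985) for Trp63, and Ttc17 (0.997) and Fbxw9 (0.996) for Mylk. For the others they were Ushbp1 (0.993) and Mrps24 (0.991) for Myh11, Epc1 (0.995) and 2900026A02Rik (0.994) for Cnn1, Htra4 (0.980) and Mrps22 (0.976) for Tagln, Mpzl1 (0.997) and Rgs17 (0.997) for Myocd, and Mfge8 (0.998) and Gm28374 (0.998) for Tpm2. The points share their libraries, and BM3, low at most of the members, weighs on each value. Without it the correlations of the same genes ran from 0.916 (Gm28374) to 0.985 (Sptb). These genes were picked as the highest of 16447 on the same libraries, so high values follow from the picking, with or without BM3.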

How the data were processed

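ATAC-seq peak lists of 8 libraries, 2 for each of 4 groups set by the labels, were analysed. The authors trimmed reads with cutadapt, aligned them uniquely to mm10 with Bowtie 1.0.0, removed mitochondrial reads, duplicates (Picard 2.3.0) and longer fragments, called peaks in each library with MACS2 (2.1.1.20160309 in the submitters' processing notes) and removed blacklisted peaks. The score in each deposited list is a whole number of at least 13, taken to be that of MACS2 and not normalized between libraries. It was turned into a percentile within the library. No read counts were used, so the counting error of a peak is unknown.

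Peaks of different libraries that shared at least 1 bp were joined to 1 region (median 153 bp). Genes with a peak (log2 of peaks + 0.5 per 10000 peaks) and regions with a peak in at least 2 libraries were compared with limma 3.58.1 in R 4.3.3, with a mean per group, trend and Benjamini-Hochberg adjustment over all features, at a threshold of 0.05. Differences are Lats1-CKO minus WT, basal-like minus luminal, and the genotype difference in basal-like minus that in luminal cells. Without BM3 the Lats1-CKO luminal group is BM7 alone, which is assumed to vary like the other groups. Single genes were also compared by a two-sided exact permutation test. The fits were also run on simulated data with planted changes. The simulated noise was simple (Poisson peak numbers, normally distributed percentiles), so that run does not show how the fits behave on these libraries. The other tools were python 3.11.15, numpy 2.4.6, scipy 1.17.1, pysam 0.24.0 and matplotlib 3.10.9. TSSs are those of GENCODE M21, and sequence is that of RefSeq GRCm38.p6, with chromosome names matched. Alternatives were a 5 kb window, unscaled numbers, another pseudocount, filters, overlaps and ranks, the 10000 highest peaks, and each library left out.

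All 9 genes are named. Of their regions, the text names the one within 1 kb of a TSS found in the most libraries, the 3 with the highest mean percentile, and any called. From each wider list it names up to 4 genes, those called and then those with the smallest p, and for each member the 2 most alike genes. Exceptions are marked where they stand. Endothelial and skeletal or cardiac muscle markers were counted too, with at most 3 of 6 and 2 of 8 genes having a start-site peak in a library, and immune markers with at most 5 of 8. The members and lists were chosen with earlier results of these data known.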

Additional observations from a re-analysis of the deposited data

Results flagged for a closer look

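In groups of 4 libraries of a genotype or population, 6 of the 44 sets of values tested had a library far from the other 3 by Dixon's criterion, which chance meets in about 1 in 20. BM3, the Lats1-CKO luminal library with 14753 peaks, was that library each time. Among luminal libraries it had 2.03 peaks at the 9 genes per 10000 peaks, 2 members with a start-site peak, 0 Myocd peaks and, on the high side, 0.678 Tagln peaks per 10000, which is a single peak. Among Lats1-CKO libraries it had 0 peaks at Myh11 and 0 at Cnn1.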

How the results depend on the processing

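No paired analysis was possible because the labels give no replicate numbers or pairing between libraries. Calls of member genes stayed at 0 under each alternative run. Without BM7 the count of member regions called was 1 in place of 0 by genotype, population and interaction (0 to 1 over the libraries left out). That region is the main one of Tpm2, and the call rests on BM3 alone standing for its group. Leaving the numbers unscaled gave a difference of 8 peaks by genotype and 8 by population, where the scaled ones were -0.37 and 0.53 per 10000. The number of members with a start-site peak differed by 0.75 between genotypes in the 10000 highest peaks, against -0.75. The exact permutation test, past 0.05 for 1 gene by genotype (Cnn1) and 1 by population (Acta2), was so for 0 and 0 when unscaled and for 0 and 0 in the 10000 highest peaks, and by population for 0 within 5 kb. Depth is unknown, so a missing peak cannot be told from a shallow library.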
